A study of Homo sapiens with 8 samples.

Results

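The genes described here are 48 genes of mitosis: the kinase and cyclins that start it, the chromosomal passenger complex, the centromere and kinetochore, the spindle checkpoint, the spindle, and the central spindle and cytokinesis. They were taken by gene name from a list of mitotic roles, and the list was drawn up with earlier results of these data known. All 48 of them were among the 63241 genes of the NCI-H716 tables, and 24 of them, those on chromosomes 1 to 8, were among the 28043 genes of the HCT116 count table. RNA of HCT116 and NCI-H716, 2 established lines of human colorectal carcinoma, was sequenced in 8 libraries, 2 for each line without and with the compound Z325 (ZINC000101867325), which the study had selected by docking against the fibroblast growth factor receptors (FGFRs). The labels name the groups HCT116 control, HCT116 Test, NCI-H716 control and NCI-H716 Test, and the test arm was taken to be Z325 from the description of the design. Each library was made by SMART-Seq2 from about 100 cells. Z325 was dissolved in DMSO, and the study set 20 µM for its experiments after a viability assay, without naming a dose or time again for the RNA or a vehicle for the controls. Both lines carry their own genetic background throughout, so each comparison is between cells of 1 line, and the duplicates were described as biological.

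In mitosis, cyclin B with CDK1 drives the cell into division, and kinetochores assembled on centromeric chromatin tie each chromosome to the spindle. The spindle checkpoint holds back CDC20, the activator of the anaphase-promoting complex (APC/C), until all chromosomes are attached, and the central spindle and a contractile ring then part the daughter cells. Most of these genes are transcribed late in the cell cycle, through promoters that carry a cell cycle homology region (CHR), where the DREAM and MMB complexes bind, and CCAAT boxes, where NF-Y binds.

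Stretches upstream of the RefSeq starts of 6 genes are given. CDCA8, CDC20, BUB1, KIF20A and CCNB1 fell in HCT116, and CKS2 is a gene whose control and Z325 libraries overlapped in NCI-H716. CKS2 lies on chromosome 9 and has no HCT116 value, so it is no contrast to the 5 within that line. In NCI-H716 the libraries of BUB1 overlapped too. The only CHR match of BUB1 lies past the start and is not printed. The sequences are RefSeq on GRCh38.p14, read 5′ to 3′ on the gene's strand within 150 bases before the start, without bases that GENCODE v44 annotates as exon. Capitals mark the letters searched: the CHR (TTTGAA or TTCGAA), a variant of it (TTTAAA) and the CCAAT box (CCAAT), each on both strands.
CDCA8, chr1:37692366-37692480, plus strand: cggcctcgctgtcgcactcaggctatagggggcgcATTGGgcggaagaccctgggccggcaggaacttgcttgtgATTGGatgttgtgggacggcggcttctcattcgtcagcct
CDC20, chr1:43358831-43358980, plus strand: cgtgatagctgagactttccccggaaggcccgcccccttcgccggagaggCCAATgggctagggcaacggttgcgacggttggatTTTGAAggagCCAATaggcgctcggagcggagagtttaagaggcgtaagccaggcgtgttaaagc
BUB1, chr2:110678064-110678204, minus strand: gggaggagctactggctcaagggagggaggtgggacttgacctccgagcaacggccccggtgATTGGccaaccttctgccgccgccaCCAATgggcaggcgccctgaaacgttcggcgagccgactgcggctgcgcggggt
KIF20A, chr5:138178962-138179111, plus strand: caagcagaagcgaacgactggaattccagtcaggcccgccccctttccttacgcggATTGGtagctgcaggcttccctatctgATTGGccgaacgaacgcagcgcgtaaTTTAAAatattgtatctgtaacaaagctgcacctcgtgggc
CCNB1, chr5:69167000-69167134, plus strand: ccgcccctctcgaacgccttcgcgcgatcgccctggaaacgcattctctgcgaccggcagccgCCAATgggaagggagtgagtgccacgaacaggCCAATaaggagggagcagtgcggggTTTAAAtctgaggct
CKS2, chr9:89311045-89311194, plus strand: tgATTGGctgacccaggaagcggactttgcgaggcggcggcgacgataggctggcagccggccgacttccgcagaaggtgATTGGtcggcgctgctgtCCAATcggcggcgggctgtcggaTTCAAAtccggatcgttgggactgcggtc

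The 2 CCAAT boxes of CDC20 begin 100 and 55 bases before the start, and its TTTGAA begins 65 bases before it, between them. In CDCA8 the TTTGAA begins 23 bases before the start, in bases annotated as exon and therefore not printed, and shares its last base with a further CCAAT box. KIF20A and CCNB1 hold only the variant, 41 and 30 bases before the start. The search of windows from 250 bases before to 50 bases after the start covered 42 of the 48 genes, while TTK, TPX2, UBE2C, BUB3, AURKA and BIRC5 had no window in the table used. A single window per gene, the first listed, was searched, and any other start of a gene was not. A CHR was found in 31 of the 42 (73.8%) and in 16.6% of all 27305 windows, and a CCAAT box in 76.2% and 35.7%. Both kinds together were found in 61.9% of the mitosis windows and in 6.58% of all windows. The variant, added to the search after the sequences had been seen, was found in 35.7% and 12.3%, and an E2F-type site (TTTCCCG or TTTGGCG or TTTCGCG) in 11.9% and 7.28%. In the windows of 105 other genes of mitosis, from the further list described below, a CHR was found in 44.8% and a CCAAT box in 52.4%. Both kinds together were found there in 26.7%, the variant in 3.81% and an E2F-type site in 26.7%. These are matches of letters in a window and were not tested.

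The 8 libraries differed in depth. In HCT116 the controls held 13339282 and 13183792 counts and the Z325 libraries 13396225 and 3434620, and in NCI-H716 the totals ran from 10210239 to 19738840. Levels below are CPM, counts scaled to the size of their library after TMM normalisation, and a change is the fitted log2 ratio of Z325 to control with its standard error (SE). In HCT116 CPM is taken over the counts of the listed chromosomes alone and is therefore not compared between the lines. As a check of the labelled cells, 5 of the 12 epithelial markers listed were measured in HCT116. EPCAM stood at 1424 to 1655 CPM and CLDN4 at 10.64 to 19.48. CLDN3 was at most 3.15 CPM, CDX1 at most 0.57 and VIL1 at most 0.47. The other markers measured there summed to at most 1.72 CPM for fibroblasts (3 of 7 listed), 1.15 for leukocytes (3 of 7) and 0.38 for endothelium (KDR alone of 5). With so few markers measured, the check is limited in that line. In NCI-H716 the 12 epithelial markers summed to 670.4 to 826.9 CPM, mostly KRT8 and KRT18, while the epithelial cadherin CDH1 was at most 0.53 CPM. The 7 fibroblast markers summed to 471.3 to 521 CPM in that line, carried by LUM and COL3A1, with COL1A1 and DCN at or near 0. With Z325 the epithelial sum of NCI-H716 was 695.3 and 670.4 CPM, below the 826.9 and 783.5 of its controls, and the part of this in the results was not tested.

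In HCT116 mitosis genes were lower with Z325: 11 of 24 fell, and the falls reached every role from the passenger complex to the contractile ring. None of the 24 rose, by edgeR, DESeq2 or limma, and 0 were higher at an unadjusted p under 0.05 (11.2% of all genes). CDCA8, the Borealin subunit of the chromosomal passenger complex, fell to 27.9% of its control level, CDC20 to 40.0% and KIF20A, a kinesin of the central spindle, to 43.2%. The median change of the 24 was -0.61, from -1.84 to 0.20, against -0.03 over the 6491 genes tested. At an adjusted p under 0.05 (edgeR, Benjamini-Hochberg over all genes tested), 2.94% of all genes were lower. At an unadjusted p under 0.05, 18 of the 24 were lower (12.7% of all genes), and in 19 both Z325 libraries lay below both controls (29% of all genes). In bulk RNA, fewer cells in mitosis and less of these transcripts per cell cannot be told apart.

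**Figure D1:**
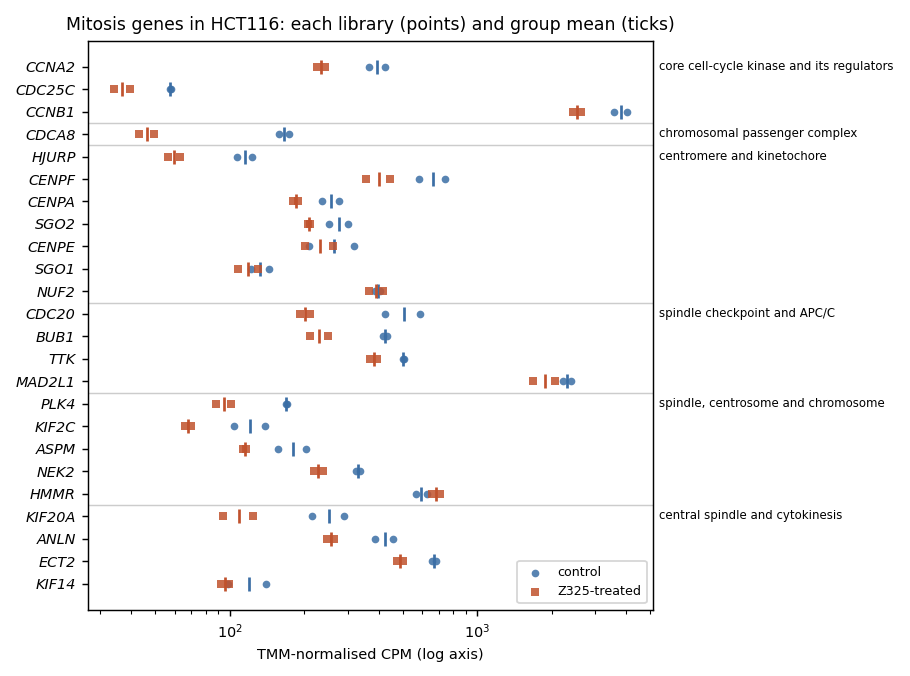
Level of each of the 24 mitosis genes measured in HCT116, in CPM on a log axis, in 2 control libraries (circles) and 2 Z325 libraries (squares), with ticks at the group means and the genes grouped by role. CDCA8 shows the widest gap, from 158.7 and 173.1 in controls to 49.42 and 42.97 with Z325, and HMMR is the gene whose Z325 libraries both lie above the controls.

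Of the genes that start mitosis, CCNB1, which encodes cyclin B1, stood at 3569 and 4032 CPM in the controls and at 2633 and 2436 with Z325. It fell by 0.58 on the log2 scale (SE 0.13, edgeR adjusted p = 0.0407). CCNA2, the cyclin A2 of S and G2 phase, stood at 366.5 and 422.8 CPM in controls and 242.5 and 225.5 with Z325 (-0.75, SE 0.14, edgeR adjusted p = 0.0207). In both cyclins the groups did not overlap. CDC25C, a phosphatase that activates CDK1, had a change of -0.64 (SE 0.21) that did not pass the test (edgeR adjusted p = 0.110). Of the exon bases of CCNA2, 9.24% are shared with EXOSC9 on the other strand, and 8.8% of those of CDC25C with FAM53C, so their counts are uncertain to that extent.

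CDCA8 (chr1:37692481-37709719, GRCh38) was the single passenger complex gene on the listed chromosomes. Its 158.7 and 173.1 CPM in controls became 49.42 and 42.97 with Z325, a change of -1.84 (SE 0.17, edgeR adjusted p = 0.00202). This was the largest fall of the 24, and the shallower Z325 library still held 150 counts of the gene.

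Among centromere and kinetochore genes 2 of 7 fell, and the median of the group was -0.40. HJURP, the chaperone that loads the centromeric histone CENPA, stood at 106.8 and 123 CPM in controls and 56.46 and 62.74 with Z325 (-0.95, SE 0.18, edgeR adjusted p = 0.0232). CENPF, a large outer kinetochore protein, stood at 743.3 and 583.7 CPM and at 444.6 and 355.8 (-0.73, SE 0.17, edgeR adjusted p = 0.0438). CENPA itself had a change of -0.47 that did not pass the test (SE 0.14, edgeR adjusted p = 0.0927), with 7.08% of its exon bases shared with SLC35F6. The cohesin protector SGO2 was at -0.40, the kinesin CENPE at -0.19, SGO1 at -0.15 and NUF2, of the microtubule-binding NDC80 complex, at -0.02. In the last 3 the control and Z325 libraries overlapped, and SGO1 is the less certain for 15.8% of shared exon bases and 2 named pseudogenes.

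In the spindle checkpoint and APC/C group 2 of 4 fell. CDC20 (chr1:43358981-43363203), whose upstream sequence is given above, stood at 423.9 and 587.3 CPM in controls and at 193.1 and 211.1 with Z325 (-1.32, SE 0.17, edgeR adjusted p = 0.00677). BUB1 (chr2:110637528-110678063), the checkpoint kinase that marks centromeric chromatin, stood at 416.4 and 433.8 CPM and at 211.8 and 249 (-0.89, SE 0.14, edgeR adjusted p = 0.0127). In each of these genes the lowest control was well above the highest Z325 library. TTK, the kinase at the head of the checkpoint, was at -0.40 (SE 0.12, edgeR adjusted p = 0.0962). MAD2L1, the inhibitor of CDC20 and the most abundant gene of the group, stood at 2228 and 2394 CPM in controls and 2063 and 1685 with Z325 (-0.30, SE 0.14, edgeR adjusted p = 0.235). CDC20, BUB1 and MAD2L1 each have a pseudogene named after them, and the treatment of reads shared with it is not given in the sources used here.

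Of 5 spindle and centrosome genes 2 fell. PLK4, the kinase of centriole duplication, stood at 168.9 and 169.7 CPM in controls and 88.13 and 100.8 with Z325 (-0.85, SE 0.15, edgeR adjusted p = 0.0217). KIF2C, which depolymerises microtubules at kinetochores, stood at 138.4 and 104.2 CPM and at 69.6 and 65.89 (-0.84, SE 0.19, edgeR adjusted p = 0.0438). For both the ranges were apart, although the controls of KIF2C differed more from each other than its Z325 libraries did. NEK2, a centrosomal kinase (-0.53, edgeR adjusted p = 0.0516), and ASPM, a spindle pole protein (-0.65, edgeR adjusted p = 0.0625), were just outside the threshold. HMMR, a microtubule-binding spindle protein, stood at 624.1 and 564.7 CPM in controls and 706.5 and 659.2 with Z325 (0.20, SE 0.13, edgeR adjusted p = 0.381). Its window held 2 CHR matches, 28 and 22 bases before the start, and 5 CCAAT boxes. The share of exon bases common with another gene was 4.8% in KIF2C and 2.87% in HMMR.

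In the central spindle and cytokinesis group 2 of 4 fell. KIF20A (chr5:138178719-138187723) stood at 215.8 and 289.8 CPM in controls and 124 and 94.25 with Z325 (-1.20, SE 0.20, edgeR adjusted p = 0.0146). ANLN, the anillin of the contractile ring, stood at 457.9 and 387.8 CPM and at 246.6 and 264.4 (-0.73, SE 0.14, edgeR adjusted p = 0.0237). Both genes were separated between the groups. ECT2, which activates RhoA at the cell equator, stood at 683.4 and 657.7 CPM in controls and 474.8 and 500.8 with Z325 (-0.46, SE 0.12, edgeR adjusted p = 0.0654). KIF14 was at -0.32 with overlapping groups. KIF20A shares 5.35% of its exon bases with BRD8 and CDC23, and ANLN 1.3% with MATCAP2.

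Per length, the falls were not confined to the most abundant transcripts, but none was among the lowest. By the FPKM computed from the counts, CCNB1 was the highest of the 24 in controls (mean 1580), followed by MAD2L1 (423.9) and CDC20 (253.5), and ASPM was the lowest (15.2). Among the genes that fell the control mean FPKM ran from 30.4 in HJURP to that of CCNB1. The genes below HJURP, which were ASPM, KIF14 (16.6), CDC25C (17.5) and CENPE (27.0), did not pass the test.

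The count of 11 rested on both controls, as did that over all genes. Without control replicate 1 it was 3 (CDCA8, CDC20 and KIF20A), with 29 genes lower in all (0.417%), and without control replicate 2 it was 1 (CDCA8), with 6 in all (0.0871%). Without the shallow Z325 replicate 2 it was 13, with 562 in all (7.92%). By limma on log2(FPKM + 1) no gene of the table was called.

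In NCI-H716 no mitosis gene passed the test, while most lay on the lower side. Fitted changes were below 0 in 41 of 48, beside 7160 of the 14142 genes tested. Their median was -0.30, against -0.01 over all genes. At an adjusted p under 0.05 edgeR called 0 of 48 lower (0.099% of all genes) and 0 higher, DESeq2 called 5 lower (CDCA8, AURKB, PLK1, UBE2C and CENPA, with 1.35% of all genes) and limma 0. At an unadjusted p under 0.05, 19 were lower (9.27% of all genes) and 0 higher (7.59%), and in 29 both Z325 libraries lay below both controls (25.1% of all genes). The 24 genes also listed in HCT116 had a median of -0.22 and the other 24 a median of -0.39. The median over all 48 was -0.16 without control replicate 2. The edgeR count was 8 without Z325 replicate 1, where 884 genes were lower in all (5.91%). It was 2 (PLK1 and AURKB) without Z325 replicate 2, with 107 in all (0.716%), and again without control replicate 2, with 149 in all (0.989%).

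**Figure D2:**
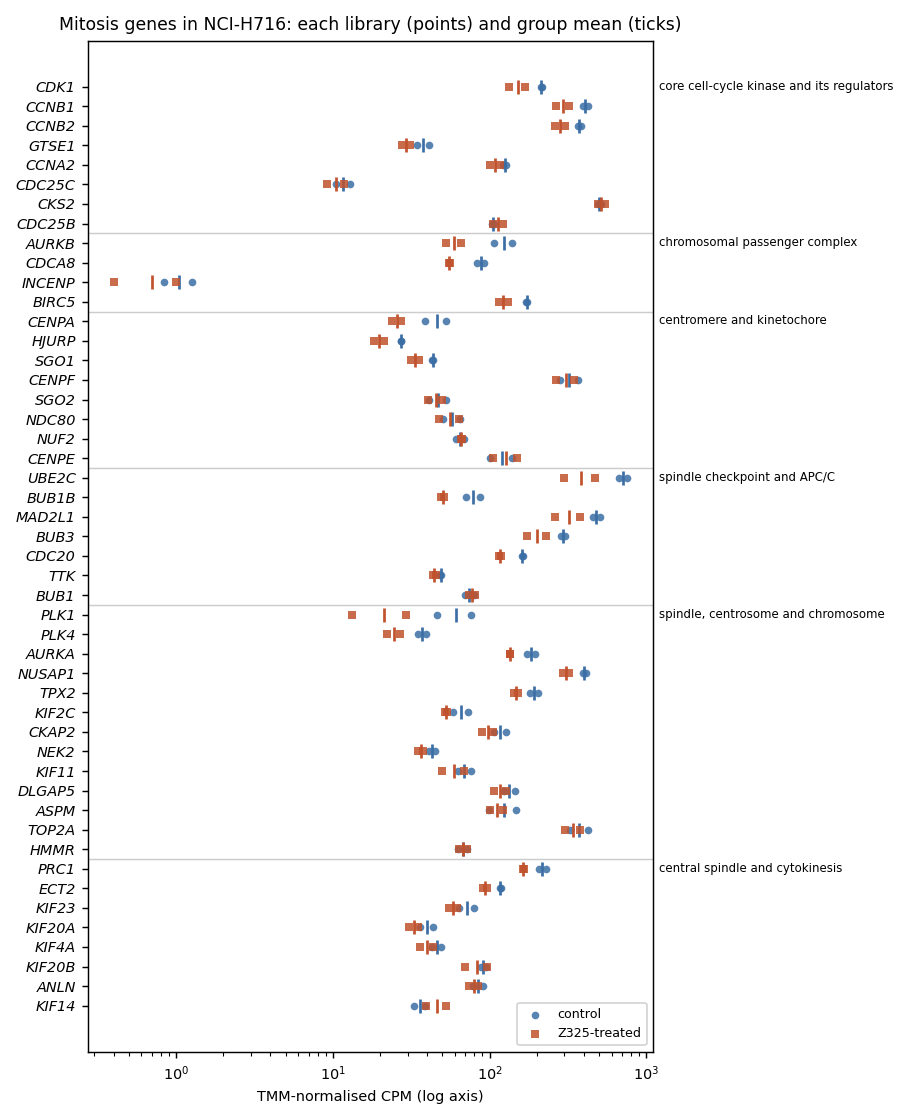
Level of each of the 48 mitosis genes in NCI-H716, in CPM on a log axis, in 2 control libraries (circles) and 2 Z325 libraries (squares), with ticks at the group means and the genes grouped by role. PLK1 and AURKB show the widest gaps among the well counted genes, INCENP lies near 1 CPM, and for many kinetochore genes the symbols overlap.

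The passenger complex had a median change of -0.64, the lowest of the role groups. AURKB, its kinase, stood at 138.5 and 107.3 CPM in controls and at 65.67 and 52.52 with Z325 (-1.06, SE 0.20, edgeR adjusted p = 0.0520). CDCA8 stood at 92.46 and 82.62 CPM and at 54.98 and 55.49 (-0.66, SE 0.17, edgeR adjusted p = 0.124), and BIRC5, its survivin subunit, at 172.9 and 171.2 and at 130.7 and 114.6 (-0.49, SE 0.16, edgeR adjusted p = 0.191). In these genes the groups were separate, but none passed the test over all genes. INCENP, the scaffold of the complex, was counted only 8 to 13 times in a library, and its change (-0.61, SE 0.76) carries little information. AURKB has a named pseudogene.

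Of the genes that start mitosis, CDK1 was at -0.50, CCNB1 at -0.49 and CCNB2 at -0.41, each with separate groups and none past the test (lowest edgeR adjusted p = 0.199). CCNB1 stood at 423.6 and 393.4 CPM in controls and 320.2 and 263.5 with Z325. CKS2, a small CDK-binding protein and the most abundant gene of the group, stood at 490.1 and 511.8 CPM in controls and 543.8 and 489.2 with Z325 (0.04, SE 0.15, edgeR adjusted p = 0.913). CDC25B, a phosphatase acting on CDK1, stood at 106.6 and 104.1 CPM and at 105.4 and 121.3 (0.11, SE 0.17, edgeR adjusted p = 0.790). For CKS2 and CDC25B the groups overlapped.

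The checkpoint and APC/C group had a median of -0.55. UBE2C, the ubiquitin-conjugating enzyme of the APC/C, stood at 754.3 and 664.9 CPM in controls and 470.3 and 296.5 with Z325 (-0.89, SE 0.21, edgeR adjusted p = 0.118). The Z325 libraries lay below the controls but were farther from each other than the controls were, and 5 pseudogenes are named after UBE2C. BUB1B was at -0.65, MAD2L1 at -0.58, BUB3 at -0.55 and CDC20, at 161.1 and 162.3 CPM in controls and 114.9 and 118.7 with Z325, at -0.47. BUB1 stood at 69.21 and 78.94 CPM and at 73.69 and 80.77, with no separation (0.06, SE 0.17, edgeR adjusted p = 0.893).

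Centromere and kinetochore genes had a median of -0.06. CENPA stood at 52.7 and 38.98 CPM in controls and at 27.26 and 23.82 with Z325 (-0.85, SE 0.21, edgeR adjusted p = 0.120). HJURP was at -0.46 and SGO1 at -0.38, both with separate groups. CENPF, the highest of them in CPM, stood at 279.6 and 364.5 CPM and at 267 and 343.7 (-0.08, SE 0.19), and NDC80, NUF2, SGO2 and CENPE lay between -0.05 and 0.09. In these last 5 genes the libraries of the groups overlapped.

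Among 13 spindle and centrosome genes the median was -0.26. PLK1, the kinase at work from mitotic entry to cytokinesis, had the largest fitted change of the 48. It stood at 76.25 and 46.35 CPM in controls and at 29.47 and 13.17 with Z325 (-1.54, SE 0.35, edgeR adjusted p = 0.103). The duplicates of PLK1 were far apart in both groups, its change ran from -2.21 to -1.04 when a library was left out, and 12.8% of its exon bases are shared with genes on the other strand, among them ERN2. PLK4 was at -0.60, AURKA, the spindle pole kinase, at -0.45 and its activator TPX2 at -0.38, each with separate groups. NUSAP1, a microtubule-bundling protein, stood at 395.9 and 409.3 CPM and at 319.4 and 292.1 (-0.40, SE 0.15, edgeR adjusted p = 0.242), but 86.8% of its exon bases are shared with other genes, OIP5-AS1 among them, so that value is uncertain. TOP2A, the topoisomerase that untangles chromosomes, was at -0.14 and HMMR at 0.01, with overlapping groups.

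The cytokinesis group had a median of -0.24. PRC1, which bundles the central spindle, stood at 207.3 and 227.4 CPM in controls and 162.4 and 166.3 with Z325 (-0.40, SE 0.16, edgeR adjusted p = 0.243), with 61.9% of its exon bases shared with other genes. KIF20A was at -0.28, ANLN at -0.09 and ECT2 at -0.33. KIF14, a kinesin that works with PRC1, was the single gene of the 48 with both Z325 libraries above both controls, at 32.94 and 38.98 CPM and at 39.55 and 52.57 (0.36, SE 0.21, edgeR adjusted p = 0.406).

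By the deposited FPKM, the highest control means in NCI-H716 were those of UBE2C (1370) and CKS2 (1351), and the lowest were those of INCENP (0.58) and KIF14 (5.35). UBE2C and CKS2 thus stood at nearly the same level per length in the controls, while their fitted changes were -0.89 and 0.04.

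In NCI-H716 the change went with transcript length. When all genes tested were cut into 5 length bins of equal size, the median change went from -0.15 in the shortest bin to 0.16 in the longest, and Spearman's rho between length and change was 0.23 over 14142 genes and 0.48 over the 48 mitosis genes. Within the bins the medians of the mitosis genes were -0.44 (4 genes), -0.57 (8), -0.25 (14), -0.29 (15) and -0.13 (7), each below that of all genes of the bin. Taken relative to the median of the same bin, the median of the 48 was -0.33, with 41 below 0. In HCT116 rho was -0.12 over all genes and 0.26 over the 24, and the median relative to the bin was -0.57. Length there is the exon bases of a gene, while in NCI-H716 it is the transcript length averaged over libraries. The measures differ, with 6304 and 1904 bases for BUB1, so the rhos are not compared between the lines. The genes share their libraries, so these rhos are descriptions, and the part of length in the results was not tested.

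**Figure D3:**
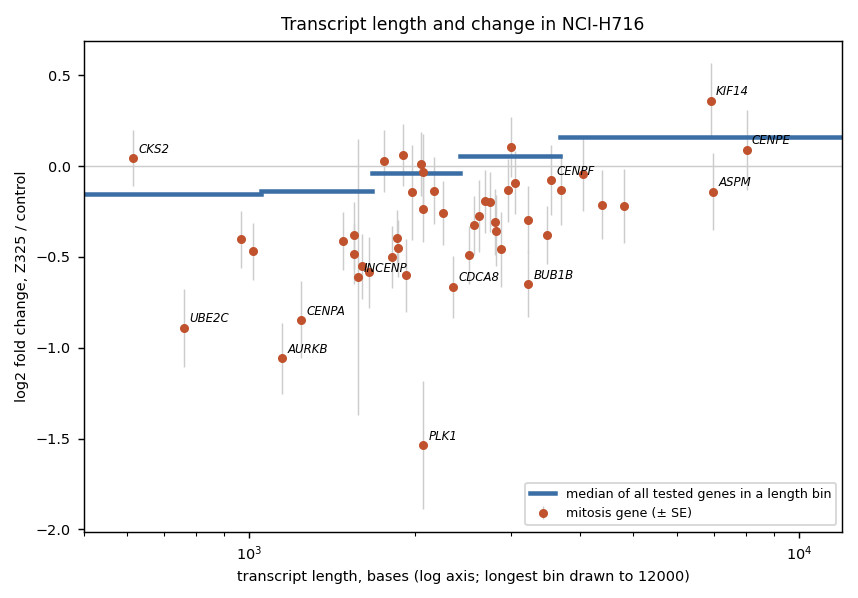
Fitted log2 change (Z325 over control, ± SE) of the 48 mitosis genes in NCI-H716 against transcript length in bases on a log axis, with bars at the median of all tested genes in each of 5 length bins. The bars climb from -0.15 to 0.16, and 41 of the 48 points lie below the bar of their bin.

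Set side by side, 19 of the 24 genes measured in both lines had changes below 0 in both, as had 29% of the 5014 genes tested in both. In 13 of the 24 (9.45% of those genes) both Z325 libraries lay below both controls in each line: CCNA2, CCNB1, CDCA8, CENPA, HJURP, MAD2L1, TTK, CDC20, PLK4, NEK2, KIF2C, KIF20A and ECT2. Of the 11 that fell in HCT116, 10 had a change below 0 in NCI-H716 and BUB1 did not, where 7160 of all 14142 genes tested were below 0. The change was lower in HCT116 for 20 of 24, and for 57.1% of the genes tested in both. Tested as the interaction of treatment and line over all 8 libraries, 0 of 24 differed at an edgeR adjusted p under 0.05 (0.0654% of the 7642 genes tested), 7 did at an unadjusted p under 0.05 (14.3% of all genes), and DESeq2 called 2, CDCA8 and BUB1 (1.79% of all genes). The difference, HCT116 minus NCI-H716, was -1.16 in CDCA8 (SE 0.24, edgeR adjusted p = 0.0894), -0.94 in BUB1 (SE 0.21, edgeR adjusted p = 0.117) and -0.84 in CDC20 (SE 0.23, edgeR adjusted p = 0.182). Its median over the 24 was -0.41, against -0.05 over all genes. For CCNB1, with -0.58 and -0.49 in the 2 lines, the difference was -0.08 (SE 0.21).

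**Figure D4:**
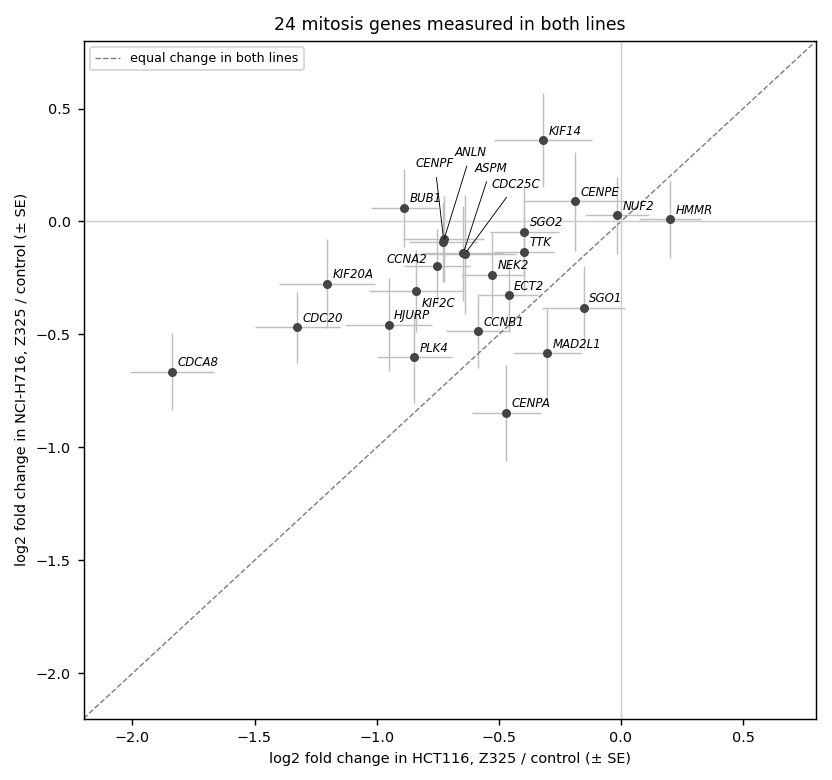
Fitted log2 change with Z325 in HCT116 (x axis) against that in NCI-H716 (y axis) for the 24 mitosis genes measured in both lines, with bars of ± 1 SE and a dashed line of equal change. Of the 24 points 20 lie above the line, and 19 lie below 0 on both axes, with CDCA8 the farthest left.

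The changes were also set beside the promoter letters described above. In HCT116 the median was -0.65 in the 15 genes with a CHR in the window and -0.61 in the 8 without, and in NCI-H716 -0.33 in 31 and -0.24 in 11. The variant was not counted as a CHR here. CCNB1, KIF20A, KIF2C, CENPE and SGO2, which hold the variant alone, are therefore among the genes without a CHR in both lines. For the CCAAT box the medians with and without a match were -0.58 (17) and -0.68 (6) in HCT116 and -0.31 (32) and -0.12 (10) in NCI-H716. For the E2F-type site they were -0.47 (1 gene) and -0.64 (22) in HCT116 and -0.40 (5) and -0.26 (37) in NCI-H716. These medians were not tested.

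A further 124 genes of mitosis outside the 48, among them other kinetochore subunits, condensins, kinesins and cytokinesis genes, were read in the same fits. In HCT116, 43 were tested, 7 fell (2.94% of all genes) and 0 rose, and their median was -0.31. Those that fell were NCAPH, a condensin subunit (-1.55, edgeR adjusted p = 0.0147), PSRC1 (-1.50), CDCA2 (-0.86), STIL, of centriole assembly (-0.85), TRIP13, which remodels MAD2 (-0.77), DEPDC1B (-0.77) and NCAPG (-0.55). Of the 11 other kinetochore and centromere genes 0 passed the edgeR test, with 2 lower and 1 higher at an unadjusted p under 0.05, beside 12.7% and 11.2% of all genes. In NCI-H716, 123 were tested and edgeR called 0, with a median of -0.23. At an unadjusted p under 0.05, 34 of them were lower and 0 higher, beside 9.27% and 7.59% of all genes. The smallest adjusted p there was that of TUBG1, the gamma-tubulin of the spindle poles (-1.13, edgeR adjusted p = 0.0760), followed by CDCA3 (-1.04, edgeR adjusted p = 0.0807).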

How the data were processed

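Separate kinds of tables were used. For HCT116 the authors deposited whole-number read counts per gene with exon lengths, and the table ends on chromosome 9, with 4 broken lines left out. For NCI-H716 the authors deposited RSEM tables per library, of which the expected counts (rounded to whole numbers) and the FPKM were used, and 62666 of the 63241 identifiers matched a symbol in GENCODE v44. The submitters' processing notes name Bowtie2 2.5.0, featureCounts and hg38, while the paper's methods name STAR and RSEM. Which tool made the counts of HCT116, and how reads shared between genes were assigned, are not given in the sources used here. The FPKM of HCT116 are not the authors' but were worked out here by dividing each count by gene length and by the total of the table.

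Each line was fitted alone in edgeR 4.0.16 (R 4.3.3) by the quasi-likelihood test after TMM and filterByExpr, with no block, and p-values were adjusted by Benjamini-Hochberg over 6491 and 14142 genes. TMM factors ran from 0.956 to 1.038, and the biological coefficient of variation was 0.245 and 0.203. The interaction was fitted over 8 libraries on 7642 genes. With 2 libraries per group the spread within a group is poorly known. The fits were tested on simulated data, whose dispersion was set to the common value after a first run had missed the recovery required of it in HCT116. Alternatives were DESeq2 1.42.0, library size alone, at least 10 counts in every library, no filter, limma 3.58.1 on log2(FPKM + 1), thinned libraries, a replicate block and leaving out each library. The members and all lists were chosen with earlier results of these data known. Values in every library are given for genes past the test, the 5 smallest p and up to 2 largest rises of each line and the highest level of each role group. The variant CHR was added after the sequences were seen.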

Additional observations from a re-analysis of the deposited data

How the results depend on the processing

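In HCT116 the count of genes lower at an adjusted p under 0.05 was 11, with 191 lower in all. It was 0 with limma on log2(FPKM + 1), which called no gene of the whole table. Under the other settings that kept all libraries it was 10 to 14, with 204 to 423 genes lower in all. The median of the 24, -0.61, was -0.58 with DESeq2, -0.65 with library size alone, -0.66 without a filter, -0.57 relative to genes of the same length bin (an alternative chosen after seeing the data) and -0.65 to -0.51 when a library was left out. In NCI-H716 the count of 0 became 5 with DESeq2, 1 with library size alone (AURKB), 1 with at least 10 counts in every library (AURKB), 4 without a filter and 0 to 8 when a library was left out, where the median of the 48 ran from -0.38 to -0.16. Of all 14142 genes tested in that line, 191 were lower with DESeq2 and 28 with library size alone, against 14 in the edgeR fit above. With at least 10 counts in every library 12 of 12492 genes were lower, and without a filter 487 of 31956. The 4 mitosis genes called without a filter thus came with many more calls over all genes. The labels give the groups shared replicate numbers, but nothing says that a number marks a shared culture or day. With a replicate block the counts were 10 in HCT116 and 18 in NCI-H716, where 1336 genes were lower and 1061 higher in all against 14 and 57 without it, and the deviations of libraries with the same number correlated at -0.02 and 0.29. In the interaction DESeq2 called 2 genes where edgeR called 0, and its median over all genes was 0.09 where that of edgeR was -0.05. In edgeR 0 of the 24 were also called with library size alone, with at least 10 counts in every library, without a filter and with a replicate block. The cause was not tested for any of these. Of the mitosis genes given with values in every library of either line, 5 changed sign in NCI-H716, only when a library was left out. Over these settings BUB1 ran from -0.0253 to 0.17, ANLN from -0.183 to 0.0198, CENPF from -0.26 to 0.14, HMMR from -0.0705 to 0.11 and CKS2 from -0.0249 to 0.13. Among the other mitosis genes CDC25C, CENPE, NUF2, NDC80, SGO2, ASPM, TOP2A and KIF20B also changed sign there. In HCT116 CENPE, NUF2 and SGO1 did when a library was left out. With every library thinned to the shallowest of its line, 3434620 counts in HCT116 and 10210239 in NCI-H716, the counts were 13 and 0. In all, 226 and 17 genes were then lower.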

Other observations

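Between duplicates of the same group, genes also differed with length, the mitosis genes among them. Spearman's rho was taken between length and the log2 difference of replicate 2 minus replicate 1. For the controls of NCI-H716 it was 0.60 over the 48 genes and 0.23 over all genes tested. For its Z325 libraries it was 0.65 and 0.14. In HCT116 it was -0.72 over the 24 genes and -0.14 over all genes for the controls, and 0.03 and 0.11 for the Z325 libraries. The genes share their libraries, and these values are descriptions.

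In NCI-H716, LUM, which encodes an extracellular matrix proteoglycan, stood at 276.5 and 226.1 CPM in controls and 199.1 and 117 with Z325. COL3A1, a fibrillar collagen, stood at 243.6 and 264.7 CPM and at 311.3 and 353.5, so the 2 genes that carried the fibroblast markers of that line lay on opposite sides of their controls.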
